A study of Mus musculus with 20 samples.

Results

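Livers of STING knockout mice were compared after bile duct ligation and after sham surgery. These 2 groups hold 10 of the 20 libraries of the series, 5 ligated and 5 sham, chosen by the genotype and surgery that their titles name, and the other 10 libraries are wild-type livers under the same surgeries. The series design gives ligation for 7 days. Every library was made from polyadenylated RNA of whole liver. Both groups described here carry the STING knockout by their labels, so the sham knockout livers control for the surgery and the knockout is common to all 10 libraries. The sources used here do not give the knockout allele, strain, age, sex or time of day at sampling, and nothing states that each library came from a separate animal, so the p-values speak only to how these libraries varied, which may be technical.

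Bile duct ligation closes the common bile duct, so that bile backs up into the liver. Hepatocytes then meet high bile acid levels, bile duct cells multiply in what is called a ductular reaction, stellate cells lay down matrix, and inflammatory cells enter the tissue. Interleukin-6 signalling through STAT3 drives the secretion of acute phase proteins by hepatocytes. Fatty acid oxidation genes are under the control of the nuclear receptor PPARalpha, and cholesterol synthesis genes under that of the transcription factor SREBP2. STING is the adaptor between the cytosolic DNA sensor cGAS and type I interferon genes.

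Values are FPKM, fragments scaled by gene length and a library size, as deposited by the authors. The size worked back from low values was not the fragment total. It was 13.65 M in BDL_KO_2248, with 18.32 M fragments, and 18.55 M in BDL_KO_2365, with 16.12 M. Summed FPKM ran from 332878 to 547332 over the 10 libraries. Of 54532 gene entries, 12713 reached 0.5 FPKM in at least 5 of the 10 knockout libraries and were tested, and 10507 of these did so in all 10. At the edge of that rule, 451 entries passed in exactly 5 libraries and 456 missed it with 4. Of the 451, 50 passed through the 5 ligated libraries alone, of which 48 were called higher, and 22 through the 5 sham libraries alone, of which 21 were called lower. Among genes named here Ccdc120, Dbp, Lox, Muc1, Spink1 and Timp1 passed through the ligated libraries alone and Hsd3b5 and Mup18 through the sham libraries alone. Such genes had to differ, so their values are a description, and the counts of list members below describe genes that passed and support nothing by themselves. Differences, ligated minus sham, are of mean log2(FPKM + 0.5) and carry limma's standard error (n = 5 per group), a scale that understates the change of low genes. A gene was called, and is said to have risen or fallen, when its adjusted p from limma with Benjamini-Hochberg adjustment over the 12713 genes was under 0.05. Values in the libraries are given in the order Sham_KO_2347, Sham_KO_2349, Sham_KO_2350, Sham_KO_2352 and Sham_KO_2353, and BDL_KO_2359, BDL_KO_2365, BDL_KO_2248, BDL_KO_2370 and BDL_KO_2371.

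Tmem173, the gene of STING, measured 1.06, 0.617, 0.588, 0.718 and 0.730 FPKM in the sham knockout libraries and 0.840, 1.38, 0.638, 2.57 and 1.66 FPKM in the ligated ones. The groups overlapped, and the difference of 0.55 ± 0.25 did not pass (limma adjusted p = 0.173). In wild-type livers the gene measured 0.843 to 2.34 FPKM after sham surgery and 2.60 to 4.605 FPKM after ligation. Sham_KO_2347 lay above the lowest sham wild-type library, and BDL_KO_2370 lay just under the lowest ligated wild-type library and above all 5 sham ones. Which part was deleted is unknown here, so transcript of this gene checks the labels only in part.

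The tissue was checked against 19 hepatocyte identity genes, none of which was at 0 in all 10 libraries. Their summed level was 58710 to 76090 FPKM in the sham libraries, 58720 and 67740 FPKM in BDL_KO_2359 and BDL_KO_2248, and 37080 to 41920 FPKM in the other 3 ligated libraries, which lay under every sham library. FPKM summed over all entries split the same way. It was 480917 and 524471 in BDL_KO_2359 and BDL_KO_2248, 332878 to 361980 in the other 3 and 408397 to 547332 in sham libraries. The marker sums were not divided by these totals, and the part of scaling was not tested. Apoa1, a liver apolipoprotein, measured 5456 to 10097 FPKM after sham surgery and 3233 to 11138 FPKM after ligation and did not pass with all 10 libraries, and it fell by 0.79 (limma adjusted p = 0.0368) without BDL_KO_2248 and BDL_KO_2359.

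Depth ranged from 15.93 to 18.32 M fragments over the 10 libraries, and a single fragment per kilobase corresponded to 0.0539 to 0.0733 FPKM. Y-linked transcripts marked 3 sham and 2 ligated libraries, and Xist, the transcript of the inactive X chromosome, marked 2 sham and 3 ligated ones. The ligated libraries varied more than the sham ones. The SD of log2 values was larger after ligation for 8945 genes (70.36%), with a median SD of 0.298 against 0.208. BDL_KO_2248 and BDL_KO_2359 stood apart from the other 3 ligated libraries, at -57.78 and -25.17 on the second principal component against 23.76 to 32.46, and counts are therefore also given without them. This choice was made on the values tested, and it removes part of the ligated spread. Counts and p-values without them are therefore a description. Only BDL_KO_2248 is numbered outside the run from Sham_KO_2347 to BDL_KO_2371, and its title does not say what the number stands for.

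**Figure D1:**
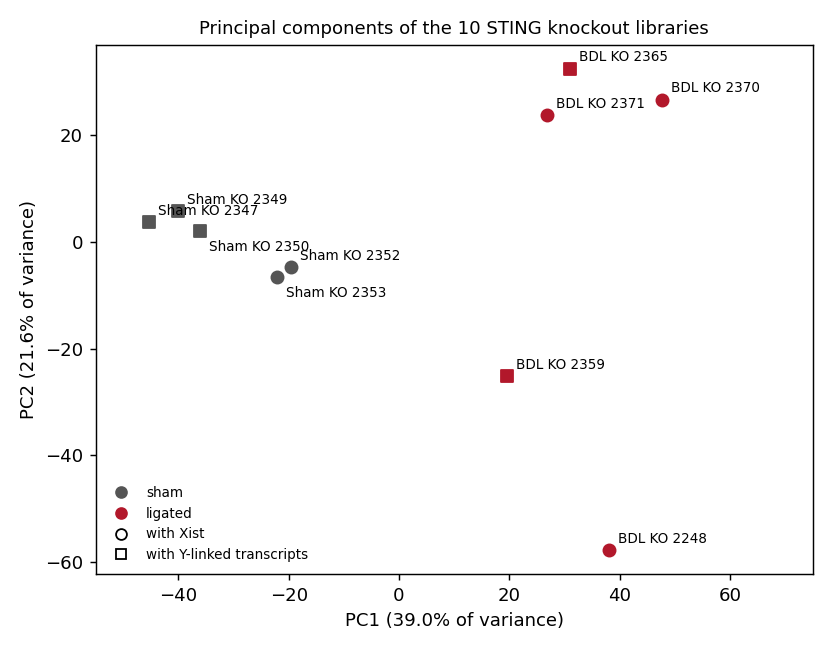
Each point is 1 of the 10 STING knockout libraries on the first 2 principal components of log2(FPKM + 0.5) over the 12713 genes tested. Grey points are sham and red points ligated libraries, circles carry Xist and squares Y-linked transcripts. The first component, with 39.03% of the variance, separates sham from ligated libraries, and BDL_KO_2248 and BDL_KO_2359 lie lowest on the second, which holds 21.58%.

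Ligation changed 1624 of the 12713 genes in knockout liver, or 12.8%, with 781 higher (6.14%) and 843 lower (6.63%). Of these, 289 rose and 261 fell by at least 2-fold. The 2 groups did not overlap in 1491 genes (11.7%). Without BDL_KO_2248 and BDL_KO_2359 the count was 3542, or 27.9%, with 1755 higher (13.8%) and 1787 lower (14.1%), and it held 1481 of the 1624 genes. All 1624 had the same direction without those libraries. The list counts below are to be read beside these shares of all genes. The count was also sensitive to other single libraries. It fell to 948 without BDL_KO_2370, 975 without Sham_KO_2349, 1008 without BDL_KO_2365, 1046 without Sham_KO_2347, 1049 without Sham_KO_2353, 1056 without Sham_KO_2350 and 1067 without Sham_KO_2352. Genes called higher made up 48.1% of calls as deposited, 54.5% after scaling to total fragments and 70.4% as TPM, which moved the median of all genes by 0.15 log2 units. Of 135 called genes named here 15 lost their call as TPM, namely Casp8, Chordc1, Dnaja1, Ehhadh, Gstm3, Gstt1, Hadha, Hsph1, Ifi27, Irf9, Ndufb5, Oit3, Otc, Pex6 and Ppara. After scaling to total fragments 11 did, namely Asah2, Casp8, Chordc1, Degs1, Gstm3, Gstt1, Ifi27, Irf9, Oit3, Pex6 and Tlr13, and with quantile normalization Ifi27 and mt-Cytb did. The Y-linked type alone gave 243 calls and the Xist type alone 13.

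**Figure D2:**
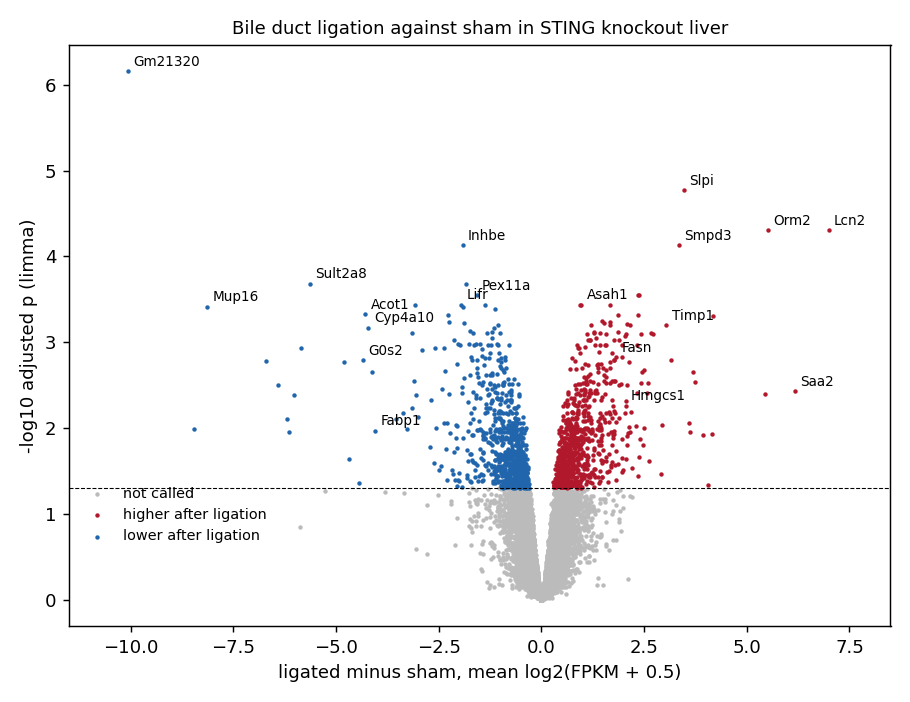
Each point is 1 of the 12713 genes tested, with the ligated minus sham difference of mean log2(FPKM + 0.5) on the horizontal axis and -log10 of the limma adjusted p on the vertical axis. Red genes were called higher and blue genes lower, the dashed line is an adjusted p of 0.05, and Lcn2 at 6.99 ± 0.47 lies farthest to the right among the labelled genes.

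Among the largest increases were secreted proteins of the acute phase response. Lcn2, whose product lipocalin-2 binds bacterial iron carriers, measured 1.02, 1.95, 2.63, 5.11 and 5.53 FPKM in the sham libraries and 314, 237, 913, 692 and 280.3 FPKM in the ligated ones. The lowest ligated value lay above the highest sham value, and the gene rose by 6.99 ± 0.47 (limma adjusted p = 4.98e-05). Orm2, an alpha-1-acid glycoprotein, went from 16.7, 12.6, 14.7, 36.8 and 18.6 FPKM to 1245, 349.9, 901, 1092 and 1100.3 FPKM. BDL_KO_2365 was its lowest ligated library, still above all 5 sham libraries, and the rise was 5.51 ± 0.38 (limma adjusted p = 4.98e-05). Slpi, an inhibitor of neutrophil proteases, had the smallest p-value of the genes that rose. It measured 0.366, 0.662, 1.31, 0.700 and 0.686 FPKM after sham surgery and 10.6, 16.6, 15.9, 10.8 and 11.5 FPKM after ligation, a narrow range in each group without overlap, and it rose by 3.46 ± 0.20 (limma adjusted p = 1.70e-05).

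Prtn3, proteinase 3 of neutrophil granules, measured 0.416, 0.164, 0.931, 0.110 and 0.503 FPKM in sham and 28.3, 9.64, 33.2, 6.26 and 14.9 FPKM in ligated livers and rose by 4.18 ± 0.43. Its ligated values were highest in BDL_KO_2248 and BDL_KO_2359, and it rose by 3.53 without them. Spink1, a trypsin inhibitor, was listed at 0 in 4 sham libraries and at 0.153 FPKM in Sham_KO_2350, against 9.96, 12.4, 0.696, 8.18 and 12.2 FPKM in the ligated libraries. BDL_KO_2248 was low for this gene, which rose by 3.75 ± 0.57 with it. Ly6d, a small surface protein, rose by 3.60 ± 0.69, with 0.286 to 1.20 FPKM in sham libraries against 3.86, 65.8, 4.24, 30.5 and 22.3 FPKM, and was low in BDL_KO_2359 and BDL_KO_2248 among the ligated libraries. Cib3, of the calcium- and integrin-binding family, rose by 4.15 ± 0.85, with 0.0631 to 1.59 FPKM in sham libraries against 9.08, 63.4, 1.64, 45.9 and 47.6 FPKM, again lowest in BDL_KO_2248. Ccdc120 rose by 2.35 ± 0.21, and Nt5c2, a cytosolic nucleotidase, rose by 0.93 ± 0.09 with a narrow spread, with 2.18 to 2.62 FPKM in sham and 4.62 to 5.35 FPKM in ligated libraries.

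Many of the largest decreases were in the major urinary proteins, pheromone-binding lipocalins that mouse liver secretes for the urine. Of 15 genes of this family that passed the filter, 12 fell, with a median of -4.81 against -0.03 for all genes tested. In the sham group the list mean was 1.97, 1.48 and 1.23 above the group mean in the 3 libraries with Y-linked transcripts, and -2.85 and -1.84 in the libraries with Xist. Mup16 measured 432, 1143, 200.1, 82.7 and 95.1 FPKM after sham surgery, with the highest values in the 3 libraries that carry Y-linked transcripts, and 0.193, 3.79, 0, 0 and 0.106 FPKM after ligation. The groups did not overlap, and Mup16 fell by 8.13 ± 0.79 on the log2 scale. Mup3, the most abundant member named here, went from 11083, 9050.1, 7653, 2298 and 2844 FPKM to 185, 323, 20.4, 43.4 and 145 FPKM and fell by 5.85 ± 0.74. Mup18 measured 7.74, 31.1, 1.80, 6.83 and 1.07 FPKM in the sham libraries and was listed at 0 in all 5 ligated ones. Mup20 did not pass, at 2097, 1213, 1430.1, 32.5 and 73.2 FPKM against 977, 2795, 44.4, 254 and 643 FPKM, with high values in both groups. These genes are near-identical copies whose reads cannot be assigned with certainty, so their single values are uncertain. With library type as a covariate, 14 of the 15 fell. Gm21320, a gene model for which the tables used here give no further annotation, had the largest decrease of all genes tested and was chosen after its values were seen. It measured 1153, 1551, 689, 428 and 668 FPKM after sham surgery and 0.0775, 0.939, 0, 0 and 0.706 FPKM after ligation. Hsd3b5, a steroid dehydrogenase of liver, measured 187, 115, 193, 0.984 and 20.6 FPKM in sham and 0 to 0.301 FPKM in ligated libraries.

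Sult2a8, a liver sulfotransferase, fell by 5.63 ± 0.47 log2 units (limma adjusted p = 0.000207). Its sham values were 319, 261, 266, 191 and 191 FPKM and its ligated values 12.6, 5.20, 2.01, 1.38 and 7.22 FPKM, without overlap. Fabp1 and Fabp2, cytosolic carriers of fatty acids, fell by 4.05 ± 0.81 and 1.84 ± 0.15. Fabp1, one of the most abundant liver transcripts, measured 8176, 5026, 4595, 3761 and 3010.3 FPKM after sham surgery and 130.2, 1063, 36.4, 374 and 899 FPKM after ligation. It was lowest in BDL_KO_2248 and BDL_KO_2359, and its fall without them was 2.71. Fabp2 was at 43.7 to 69.7 FPKM in sham and 12.1 to 17.0 FPKM in ligated libraries with no such split. Inhbe, the activin E subunit secreted by liver, fell by 1.92 ± 0.14, from 11.8, 19.7, 13.1, 14.6 and 15.8 FPKM to 3.19, 3.15, 4.16, 3.37 and 3.96 FPKM, and had the smallest adjusted p of the falling genes after Gm21320, 7.37e-05.

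Acute phase genes were higher in each of the 5 ligated libraries by their list mean. Of 27 genes listed, 26 passed the filter and 13 rose, with none called lower and a median of 1.64. The mean of the list was above the sham mean by 1.06 in BDL_KO_2365, 1.29 in BDL_KO_2371, 1.88 in BDL_KO_2370, 2.34 in BDL_KO_2359 and 3.76 in BDL_KO_2248. Saa2, a serum amyloid A protein of high-density lipoprotein, measured 3.60, 4.18, 5.51, 6.69 and 4.87 FPKM in sham and 434, 67.6, 6813, 310.2 and 135 FPKM in ligated libraries. The value of BDL_KO_2248 was far above the other 4, yet the gene rose by 4.72 without it and BDL_KO_2359, against 6.17 ± 0.98 with all 10. Its near-identical neighbour Saa1 rose by 5.43 ± 0.88, and reads of the pair cannot be told apart with certainty. Saa3, expressed mainly outside hepatocytes, rose by 1.65 ± 0.31, with 0.941 to 1.89 FPKM in sham and 2.76 to 11.7 FPKM in ligated libraries. Orm1 and Orm3, paralogs of Orm2 with which they may share reads, rose by 1.73 ± 0.35 and 3.62 ± 0.74.

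Other acute phase genes differed between ligated libraries to the point that they were not called. Apcs, serum amyloid P component, measured 93.0, 58.5, 106, 87.4 and 126 FPKM against 595, 134, 1911, 229 and 179 FPKM, and Itih3, an inter-alpha-trypsin inhibitor chain, 265, 266, 278, 267 and 346 FPKM against 1344, 352, 3179, 714 and 472 FPKM. Both groups of values were free of overlap for both genes, but the adjusted p was 0.0615 and 0.0584. The fibrinogen gene Fga reached 12457 FPKM in BDL_KO_2248, against 1515 to 2178 FPKM in sham libraries and 1318 to 2406 FPKM in the other ligated ones. The fibrinogen subunit Fgg showed the same pattern, with 10422 FPKM in BDL_KO_2248.

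Genes of plasma proteins that bind copper, heme or hemoglobin were among those that rose. Of 26 genes of iron and heme handling that passed, 7 rose and none fell. Hpx, which binds free heme, measured 3397, 3033, 2858, 2308 and 2419 FPKM in the sham and 9698, 7797, 13011, 11185 and 9873 FPKM in the ligated libraries. Its groups were well separated and it rose by 1.87 ± 0.21 (limma adjusted p = 0.000759). Hp, which binds hemoglobin, rose by 2.10 ± 0.32 and Cp, the plasma ferroxidase ceruloplasmin, by 1.58 ± 0.18, with 104 to 138 FPKM in sham and 312 to 553 FPKM in ligated libraries. Slc40a1, the iron exporter ferroportin, rose by 0.77 ± 0.15 and Hmox1, heme oxygenase, by 1.53 ± 0.28, from 14.3, 13.1, 9.50, 12.2 and 12.9 FPKM to 24.1, 49.2, 40.6, 64.0 and 20.5 FPKM. Steap4, a metalloreductase, rose by 1.62 ± 0.33. Hemoglobin transcripts were high in 1 ligated library, with Hbb-bs at 673 FPKM in BDL_KO_2371 and 78.3 to 111 FPKM in the other 4. Of 14 markers of blood, pancreas, fat and muscle 5 were listed at 0 in all 10 libraries. The part of blood cells in these results was not tested.

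Complement and coagulation genes changed in part. Of 27 complement genes 3 rose and 2 fell (18.5% called, against 12.8% of all genes), with a median of 0.30. As TPM 7 rose and 2 fell, with quantile normalization 8 and 3, and after scaling to total fragments 5 and 2, and without BDL_KO_2248 and BDL_KO_2359 10 rose and 3 fell. The count that rose was 1 without Sham_KO_2352 or Sham_KO_2353 and 6 without BDL_KO_2248. C3, the central complement protein, went from 1444, 1670.5, 1264, 1702 and 2049.5 FPKM to 4906, 2562, 6722, 4925 and 3229.8 FPKM and rose by 1.40 ± 0.28. C8g, a chain of the membrane attack complex component C8, fell by 1.44 ± 0.22, with 220 to 366 FPKM in sham and 64.7 to 142 FPKM in ligated libraries. Of 29 coagulation and fibrinolysis genes 2 rose (6.9% called), against 4 as TPM and 7 with quantile normalization. Of these Pros1, the anticoagulant protein S, rose by 1.16 ± 0.19, with 15.9 to 18.1 FPKM in sham and 28.8 to 62.2 FPKM in ligated libraries.

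Of 18 genes of interleukin-6 family signalling that passed, 3 rose and 2 fell. The genes that rose numbered 1 without Sham_KO_2347, Sham_KO_2349, Sham_KO_2350, Sham_KO_2352, Sham_KO_2353 or BDL_KO_2370. Lifr, the receptor for leukemia inhibitory factor, measured 35.5, 33.3, 41.7, 29.8 and 45.8 FPKM in sham and 9.84, 7.99, 6.60, 8.93 and 13.5 FPKM in ligated libraries. The groups lay well apart, and Lifr fell by 1.96 ± 0.18 (limma adjusted p = 0.000363). Junb, an immediate early transcription factor, rose by 1.46 ± 0.29, with 6.50 to 13.2 FPKM in sham and 16.5 to 49.6 FPKM in ligated libraries. Socs3, the feedback inhibitor that STAT3 induces, measured 3.31, 4.64, 2.48, 3.05 and 4.11 FPKM against 13.7, 7.38, 57.4, 13.9 and 5.24 FPKM. It rose by 1.82 ± 0.51 (limma adjusted p = 0.0399), and Stat3 itself by 0.75 ± 0.21. These 2 calls were lost without any of several single libraries, Socs3 without 7 and Stat3 without 8 of the 10 in turn, with adjusted p of up to 0.0854 and 0.0935. Both were also lost with library type as a covariate (limma adjusted p = 0.0625 and 0.0647).

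Cholesterol synthesis genes rose at early and late steps of the pathway. All 24 genes of the list passed the filter, 18 rose and none fell, with a median of 1.46. Hmgcs1, a synthase at the start of the mevalonate pathway, measured 70.0, 55.3, 45.5, 28.3 and 36.5 FPKM in the sham libraries and 292, 269, 210.4, 169.9 and 81.8 FPKM in the ligated ones. BDL_KO_2359 was the highest and BDL_KO_2371 the lowest, but no ligated value reached the sham range, and Hmgcs1 rose by 2.05 ± 0.35 (limma adjusted p = 0.00545). Fdft1, Sqle and Lss, which make squalene, oxidise it and close the sterol rings, rose by 1.76 ± 0.35, 1.71 ± 0.38 and 1.71 ± 0.32, and Dhcr7, of a late step, by 1.20 ± 0.22.

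Srebf2, the gene of SREBP2, rose too, by 0.86 ± 0.19, from 10.1, 9.60, 9.45, 9.77 and 13.2 FPKM to 22.5, 17.4, 27.5, 19.5 and 12.5 FPKM, with BDL_KO_2371 inside the sham range. Mvd, a mevalonate decarboxylase, rose by 1.96 ± 0.51. The list mean was above the sham mean by 2.01 in BDL_KO_2359, 1.63 in BDL_KO_2248, 1.24 in BDL_KO_2365, 1.13 in BDL_KO_2370 and 0.43 in BDL_KO_2371, so it was lowest in a library that did not stand apart. Without BDL_KO_2248 and BDL_KO_2359, 15 rose and 2 fell, Tm7sf2 (fell by 0.67) and Ebp (fell by 0.49), with a median of 1.12. With 1 library left out the count of genes that rose was between 12, without Sham_KO_2349 or Sham_KO_2352, and 19, without BDL_KO_2371. Mvd lost its call without Sham_KO_2349, Sham_KO_2350, Sham_KO_2352, BDL_KO_2365 or BDL_KO_2370 (limma adjusted p up to 0.0747), and Msmo1 without Sham_KO_2349, Sham_KO_2352, Sham_KO_2353 or BDL_KO_2365 (up to 0.0598). Mvd and Msmo1 also lost their call without both BDL_KO_2248 and BDL_KO_2359 (limma adjusted p = 0.085 and 0.0591).

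SREBP2 binds sterol regulatory elements near promoters, often beside boxes for the factor NF-Y, so the promoters of the called members with the largest changes among those in the RefSeq promoter table are shown. Each is the 150 bases before the start site on GRCm38.p6, 5′ to 3′ on the strand of the gene, with matches to the sterol element TCACNCCAC or the NF-Y box CCAAT, on either strand, in capitals.
Hmgcs1 (chr13:119690201-119690350, plus strand): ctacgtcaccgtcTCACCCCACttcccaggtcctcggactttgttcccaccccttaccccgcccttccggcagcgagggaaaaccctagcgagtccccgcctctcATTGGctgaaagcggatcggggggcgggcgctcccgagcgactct
Mvd (chr8:122443423-122443572, minus strand): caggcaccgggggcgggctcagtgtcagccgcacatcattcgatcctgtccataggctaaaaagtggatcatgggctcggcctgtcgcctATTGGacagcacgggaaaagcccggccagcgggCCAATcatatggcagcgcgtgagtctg
Lss (chr10:76531455-76531604, plus strand): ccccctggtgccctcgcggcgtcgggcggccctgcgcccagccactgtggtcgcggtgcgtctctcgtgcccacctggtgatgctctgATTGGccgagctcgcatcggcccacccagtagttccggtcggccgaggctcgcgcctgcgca
Msmo1 (chr8:64733579-64733728, minus strand): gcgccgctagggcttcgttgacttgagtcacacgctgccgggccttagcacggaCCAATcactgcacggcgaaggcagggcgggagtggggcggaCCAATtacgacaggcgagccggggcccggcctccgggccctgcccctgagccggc
These 4 genes rose by 2.05 ± 0.35, 1.96 ± 0.51, 1.71 ± 0.32 and 1.70 ± 0.43. The sterol element was present in Hmgcs1 alone of the 4, with its first base 137 bases before the start site, and each promoter held 1 or 2 NF-Y boxes that overlapped no other match. Over 250 bases before the start, 16 of 19 promoters of this list (84.2%, 16 genes matched) held a CCAAT box, against 35.2% of the 11500 promoters of tested genes, and 1 of 19 (5.26%) held the sterol element, against 1.12%. A GC box, GGGCGG on either strand, was in 84.2% against 55.9%. A match is a description of the letters and not a binding site.

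Srebf1, Fasn, Acaca and Scd2 rose as well. They were the 4 of 22 lipogenesis genes that rose, while 2 fell, with a median of 0.33. The number that fell was 0 without Sham_KO_2353 or BDL_KO_2370 and 1 without Sham_KO_2347, Sham_KO_2349, Sham_KO_2352 or BDL_KO_2365. Fasn, fatty acid synthase, measured 23.9, 23.5, 26.8, 35.0 and 26.5 FPKM in the sham and 148, 79.2, 56.9, 121 and 98.1 FPKM in the ligated libraries, with no overlap, and rose by 1.81 ± 0.24 (limma adjusted p = 0.0015). Acaca, acetyl-CoA carboxylase, went from 3.07, 4.31, 4.47, 4.45 and 3.11 FPKM to 11.5, 7.72, 9.80, 11.0 and 10.4 FPKM and rose by 1.28 ± 0.14. Srebf1, which encodes SREBP1, rose by 1.45 ± 0.32, with 10.7 to 20.1 FPKM in sham and 22.7 to 89.8 FPKM in ligated libraries. Scd2, a stearoyl-CoA desaturase, rose by 1.89 ± 0.35, while the abundant liver desaturase Scd1 measured 548 to 1385 FPKM against 983 to 2398 FPKM and did not pass.

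Fatty acid oxidation moved the other way. Of 34 oxidation and PPARalpha target genes, all of which passed the filter, 24 fell and 1 rose, with a median of -1.02. Acot1, an acyl-CoA thioesterase induced by PPARalpha, measured 32.8, 47.7, 21.8, 40.9 and 51.9 FPKM in sham and 0.664, 2.93, 0.600, 0.782 and 4.29 FPKM in ligated libraries. It was low in all 5 ligated livers and fell by 4.29 ± 0.43 (limma adjusted p = 0.000474). The omega-hydroxylase Cyp4a10 went from 349.6, 495, 317, 663 and 624 FPKM to 82.6, 12.3, 16.5, 17.0 and 32.6 FPKM and fell by 4.21 ± 0.46, and its neighbour Cyp4a14, which may share reads with it, fell by 3.10 ± 0.47.

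Enzymes and carriers of the oxidation steps fell as well. Cpt2 and Slc25a20, which carry fatty acids into mitochondria with carnitine, fell by 1.25 ± 0.16 and 1.07 ± 0.13. Eci1, Acadvl and Hadha, enzymes of beta-oxidation, fell by 1.50 ± 0.18, 0.76 ± 0.14 and 0.75 ± 0.13, and Ehhadh, a peroxisomal enzyme of the same kind, by 1.50 ± 0.34. Creb3l3, a transcription factor of fasting metabolism, fell by 0.98 ± 0.14, with 116 to 155 FPKM in sham and 58.6 to 84.4 FPKM in ligated libraries. Ppara itself fell by 0.89 ± 0.22, from 22.0, 32.7, 13.2, 16.5 and 19.4 FPKM to 11.5, 7.85, 10.9, 9.69 and 13.2 FPKM, and lost its call without Sham_KO_2347, Sham_KO_2353, BDL_KO_2365 or BDL_KO_2370 (limma adjusted p up to 0.0634). Cd36, a fatty acid uptake receptor, was the 1 gene of the list that rose, by 1.56 ± 0.28, with 8.36 to 20.7 FPKM in sham and 23.1 to 64.6 FPKM in ligated libraries. The list mean was below the sham mean in each ligated library, by 0.88 to 1.66 (list means of -0.88 in BDL_KO_2371 and -1.66 in BDL_KO_2248). Without BDL_KO_2248 and BDL_KO_2359, 27 fell and 1 rose, and as TPM 17 fell.

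**Figure D3:**
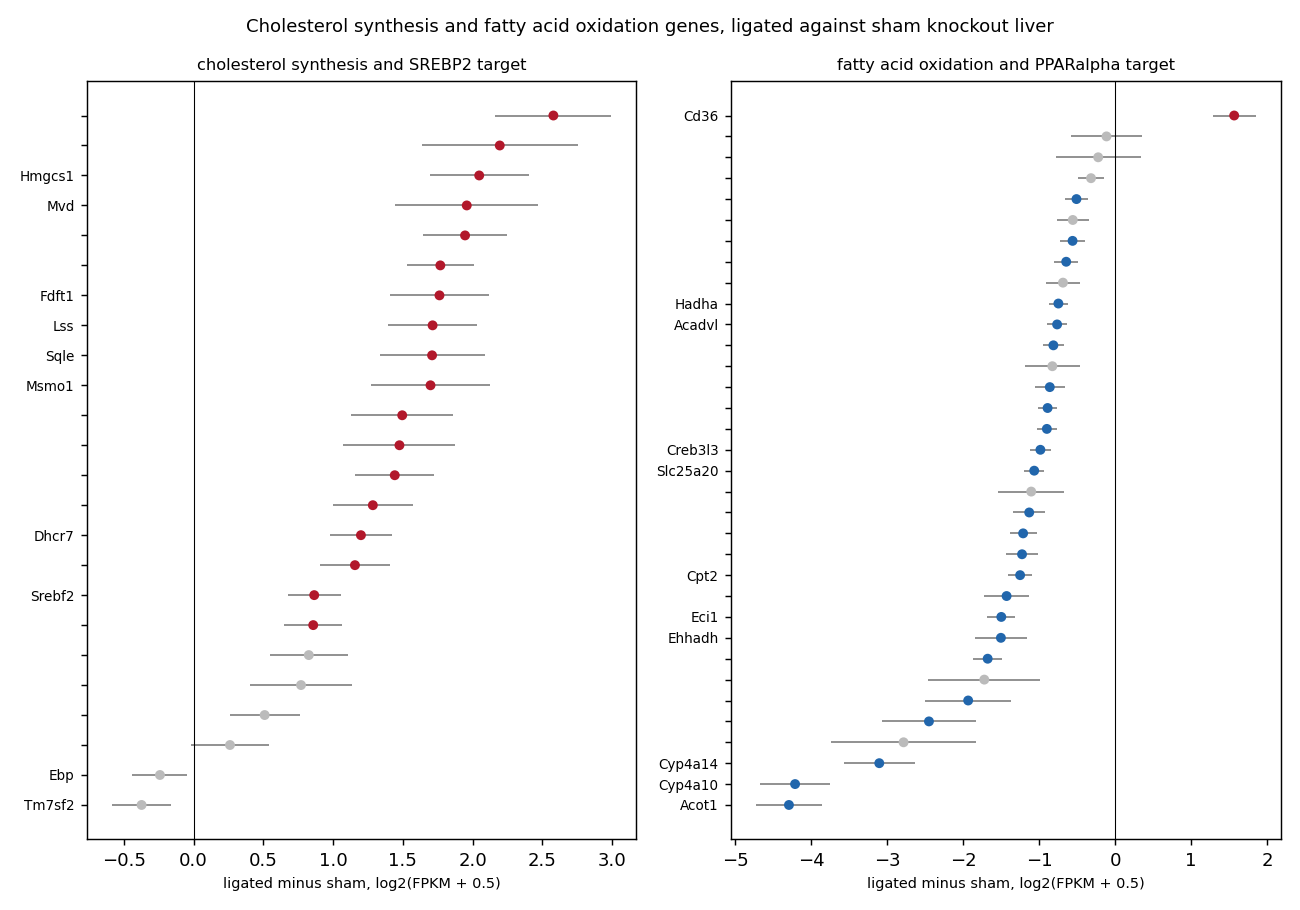
Each point is 1 gene of the cholesterol synthesis list (left, 24 genes) or the fatty acid oxidation list (right, 34 genes), with the ligated minus sham difference of log2(FPKM + 0.5) on the horizontal axis and bars of 1 standard error from limma (n = 5 per group). Red genes were called higher, blue genes lower and grey genes were not called, and genes named in the text are labelled. On the left 18 genes are red and none blue, and on the right 24 are blue and Cd36 is red.

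Some lipid droplet and peroxisome genes fell too. Of 16 droplet and lipolysis genes that passed, 6 fell and 1 rose, with a median of -0.52. G0s2, the inhibitor of adipose triglyceride lipase, measured 341, 369.6, 101, 233 and 112 FPKM in sham and 6.89, 14.8, 2.53, 8.68 and 30.3 FPKM in ligated libraries and fell by 4.35 ± 0.59 (limma adjusted p = 0.00162). The droplet coat genes Plin2 and Plin5 fell by 1.78 ± 0.36 and 1.17 ± 0.23, Plin2 from 256, 395, 247, 184 and 165 FPKM to 52.1, 123, 32.5, 75.7 and 96.9 FPKM. Mgll, monoacylglycerol lipase, and Fitm2, of droplet formation, fell by 1.08 ± 0.18 and 0.98 ± 0.16, and Angptl4, a secreted inhibitor of lipoprotein lipase, by 1.82 ± 0.41. Of 19 peroxisome genes 7 fell, and 15 without BDL_KO_2248 and BDL_KO_2359. Leaving out 1 library changed the count that fell to 3 without Sham_KO_2352 or BDL_KO_2365 and 4 without Sham_KO_2349, Sham_KO_2350 or BDL_KO_2370. Pex11a, which acts in peroxisome division, went from 36.0, 49.3, 32.7, 45.1 and 35.3 FPKM to 14.7, 13.0, 14.1, 11.2 and 11.2 FPKM and fell by 1.58 ± 0.14 (limma adjusted p = 0.000281). Pxmp4, a peroxisomal membrane protein, fell by 1.73 ± 0.19 and Pex6, a peroxisomal ATPase, by 0.78 ± 0.15. As TPM 2 of the 19 fell, and after scaling to total fragments 4.

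Some mitochondrial respiration genes fell. Of 40 nuclear genes of oxidative phosphorylation, 9 fell, with a median of -0.52. Ndufb5 and Ndufs7, subunits of complex I, fell by 0.71 ± 0.14 and 0.78 ± 0.17, Ndufb5 with 13.7 to 18.8 FPKM in sham and 7.61 to 12.5 FPKM in ligated libraries. The count that fell was 2 without Sham_KO_2349 or BDL_KO_2365, 3 without BDL_KO_2370, 4 without Sham_KO_2347, Sham_KO_2350 or Sham_KO_2352 and 27 without BDL_KO_2359. It was 31 without both BDL_KO_2248 and BDL_KO_2359. As TPM it was 2. Of the transcripts of the mitochondrial genome, mt-Cytb fell by 0.87 ± 0.21, with 7839 to 12306 FPKM in sham and 3986 to 5919 FPKM in ligated libraries, a call lost without Sham_KO_2347, Sham_KO_2349, Sham_KO_2352, BDL_KO_2365 or BDL_KO_2370 (limma adjusted p up to 0.0632). Limma called none of 37 ribosomal protein genes, with a median of -0.02. At an unadjusted p under 0.05 0 were higher and 0 lower, voom on recovered fragments called 0 higher and 0 lower, and 2 rose as TPM and 4 with quantile normalization.

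Bile acid synthesis and transport changed in part. Of 14 synthesis genes that passed, 2 fell and none rose (14.3% called, against 12.8% of all genes). Without BDL_KO_2248 and BDL_KO_2359 6 fell, where 14.1% of all genes were called lower. Cyp8b1, which sets the share of cholic acid, measured 398, 364, 265, 215 and 257 FPKM against 189, 68.7, 61.7, 21.8 and 91.9 FPKM. BDL_KO_2370 was lowest and BDL_KO_2359 highest after ligation, and Cyp8b1 fell by 2.06 ± 0.46 (limma adjusted p = 0.017). Hsd17b4, of peroxisomal side chain shortening, fell by 0.82 ± 0.15, with 135 to 189 FPKM in sham and 74.6 to 105 FPKM in ligated libraries. Cyp7a1, the rate-limiting enzyme of the classic pathway, measured 17.0, 10.1, 30.6, 63.0 and 34.4 FPKM in sham and 166, 31.5, 34.9, 26.9 and 132 FPKM in ligated libraries. Its groups overlapped, with the highest values in BDL_KO_2359 and BDL_KO_2371, and the difference of 1.15 ± 0.61 did not pass (limma adjusted p = 0.24). Nr0b2, the repressor that bile acids induce through the receptor FXR, measured 28.0 to 50.1 FPKM against 6.05 to 35.5 FPKM and did not pass either.

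Among 12 bile acid carriers, 4 rose and 1 fell. The genes that rose numbered 2 without Sham_KO_2347, Sham_KO_2349, Sham_KO_2353 or BDL_KO_2370. Slco1a1, an uptake carrier of the sinusoidal membrane, measured 120.3, 119, 112, 17.3 and 60.8 FPKM in sham and 2.20, 11.4, 2.77, 1.62 and 4.47 FPKM in ligated libraries and fell by 4.12 ± 0.59 (limma adjusted p = 0.00223). Slc51b, a subunit of a basolateral efflux carrier, rose by 2.72 ± 0.32, from 0, 0, 0.728, 0.179 and 0.351 FPKM to 3.29, 5.55, 4.76, 6.41 and 2.10 FPKM. Slc51a, also of this list, missed the filter. It measured 0.0199 to 0.111 FPKM in sham and 0.0337 to 0.207 FPKM in ligated libraries, with overlap. Abcb1a, an export pump of broad specificity, rose by 1.76 ± 0.26, with 0.329 to 1.09 FPKM in sham and 1.82 to 5.52 FPKM in ligated libraries. The main uptake carrier Slc10a1 did not pass, and its ligated values split, with 434 and 320.1 FPKM in BDL_KO_2359 and BDL_KO_2248 against 78.1 to 152 FPKM in the other 3. The canalicular pump Abcb11 measured 134 to 160.2 FPKM after sham surgery and 72.4 to 231 FPKM after ligation and did not pass. Of 8 genes of phospholipid and sterol export 1 rose and 1 fell (25% called, against 12.8% of all genes). With 1 library left out the count that rose stayed at 1 only without BDL_KO_2248 or BDL_KO_2371, and was otherwise 0. It was also 0 with library type as a covariate. Pctp, a phosphatidylcholine carrier, fell by 1.00 ± 0.18, with 42.8 to 57.0 FPKM in sham and 16.1 to 32.2 FPKM in ligated libraries.

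Drug-metabolising enzymes fell in part. Of 35 cytochrome P450 genes of families 1 to 3 that passed, 7 fell and none rose, with a median of -0.52. In this list 20% were called, against 12.8% of all genes. The number that fell was 3 without Sham_KO_2347, Sham_KO_2349, Sham_KO_2350 or BDL_KO_2370 and 4 without Sham_KO_2352 or BDL_KO_2365. Cyp2c37 measured 300, 289, 270, 615 and 496 FPKM in sham and 122, 25.4, 163, 30.5 and 58.5 FPKM in ligated libraries and fell by 2.58 ± 0.50 (limma adjusted p = 0.00991). Cyp2d40 and Cyp2c29 fell by 2.28 ± 0.23 and 1.66 ± 0.34, and members of these families may share reads. Of 38 conjugation genes 5 fell and 2 rose (18.4% called). Leaving out 1 library changed the count that rose to 0 without Sham_KO_2349, Sham_KO_2350, Sham_KO_2352, Sham_KO_2353, BDL_KO_2365 or BDL_KO_2371, 1 without Sham_KO_2347, BDL_KO_2359 or BDL_KO_2370 and 4 without BDL_KO_2248. Ugt2b1 and Ugt3a1, glycosyltransferases, fell by 2.91 ± 0.37 and 1.91 ± 0.19, and Gstt1, a glutathione transferase, by 1.15 ± 0.24, with 175 to 241 FPKM in sham and 48.8 to 126 FPKM in ligated libraries. Gstm3, of the same class of enzymes, rose by 2.91 ± 0.78, with 209, 666, 25.7, 287 and 825 FPKM after ligation against 21.1 to 46.5 FPKM in sham livers. BDL_KO_2248 lay inside the sham range, and the call was lost in turn without 8 of the 10 libraries, all but BDL_KO_2359 and BDL_KO_2248 (limma adjusted p up to 0.078).

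Antioxidant genes rose in part. Of 23 NRF2 target and antioxidant genes that passed, 6 rose and 1 fell. Nqo1, a quinone reductase, rose by 1.23 ± 0.24, from 4.31, 3.84, 3.90, 7.65 and 4.17 FPKM to 16.8, 6.69, 13.3, 12.5 and 10.4 FPKM, and Pgd, of the pentose phosphate pathway, by 1.09 ± 0.22. Mt2, a metallothionein, measured 0.122, 0.362, 0, 3.13 and 4.66 FPKM in sham and 25.6, 7.60, 112, 11.5 and 14.9 FPKM in ligated libraries and rose by 3.95 ± 0.82. Its 2 higher sham values were in the libraries with Xist, and its highest ligated value was in BDL_KO_2248.

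Of 22 genes of sphingomyelin and ceramide metabolism that passed, 6 rose and 1 fell. Smpd3, neutral sphingomyelinase 2, measured 0.303, 0.272, 0.567, 0.0850 and 0.190 FPKM in the sham libraries and 5.06, 9.30, 6.68, 12.4 and 5.31 FPKM in the ligated ones. The groups lay well apart, and Smpd3 rose by 3.35 ± 0.25 (limma adjusted p = 7.37e-05). Asah1, acid ceramidase, had a narrow spread, with 11.6, 10.9, 11.5, 11.6 and 11.3 FPKM against 19.9, 24.1, 22.9, 25.7 and 22.1 FPKM, and rose by 0.97 ± 0.09 (limma adjusted p = 0.000363). Sptlc2, of the first step of sphingolipid synthesis, rose by 1.05 ± 0.17, Degs1, dihydroceramide desaturase, by 0.52 ± 0.12 and Asah2, neutral ceramidase, by 0.62 ± 0.13. With 1 library left out 5 or 6 of the list rose, and after scaling to total fragments 3 rose and none fell.

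Amino acid, glucose and growth axis genes were called to different extents. Of all genes tested 12.8% were called, against 3.23% of urea cycle and amino acid breakdown genes, 9.09% of glucose metabolism genes and 25% of the growth hormone and IGF axis. Of 31 urea cycle and amino acid breakdown genes 1 fell, Otc, the ornithine transcarbamylase gene, by 0.87 ± 0.18, with 97.7 to 131 FPKM in sham and 46.7 to 81.3 FPKM in ligated libraries. Without BDL_KO_2248 and BDL_KO_2359, 15 of these genes fell. The list mean in those 2 libraries was 0.45 and 0.50 above the sham mean, and in the other 3 it was below (-0.70, -0.55 and -0.20). Of 33 glucose metabolism genes 2 rose and 1 fell, and Slc2a2, the glucose transporter of hepatocytes, rose by 0.79 ± 0.16, with 31.6 to 49.5 FPKM in sham and 65.0 to 98.7 FPKM in ligated libraries. Of 16 genes of the growth hormone and IGF axis 3 fell and 1 rose, and 1 fell as TPM or after scaling to total fragments. The count that fell was 1 without Sham_KO_2349, Sham_KO_2350, BDL_KO_2365 or BDL_KO_2370. Igfbp3, the main carrier of IGF in plasma, fell by 1.56 ± 0.23, from 6.74, 5.72, 7.17, 9.76 and 8.77 FPKM to 1.09, 2.53, 2.37, 2.17 and 3.46 FPKM. Ppargc1a, a coactivator of mitochondrial and glucose-producing genes, rose by 0.64 ± 0.12, with 1.21 to 1.46 FPKM in sham and 2.04 to 3.12 FPKM in ligated libraries.

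Clock and chaperone genes changed in part. Of 17 clock genes that passed, 4 rose and 3 fell. Dbp, a clock output transcription factor, measured 0.313, 0.119, 0.0647, 0.488 and 0.208 FPKM in sham and 10.8, 1.49, 1.96, 1.41 and 2.42 FPKM in ligated libraries and rose by 2.12 ± 0.43. Per3 rose by 1.45 ± 0.31, and Npas2, a partner of BMAL1, fell by 1.78 ± 0.30, from 2.68, 3.51, 1.91, 3.98 and 3.62 FPKM to 0.223, 1.30, 0.0920, 0.880 and 0.634 FPKM. The groups of Per3 and Npas2 did not overlap, Dbp passed the filter through the ligated libraries alone, and the part of sampling time was not tested. Of 22 heat shock chaperones 7 fell and none rose, with a median of -0.56. Hsph1 and Dnaja1, partners of HSP70, fell by 1.37 ± 0.29 and 0.94 ± 0.17, Dnaja1 with 26.9 to 38.4 FPKM in sham and 12.4 to 22.9 FPKM in ligated libraries, and Chordc1, a partner of HSP90, by 0.80 ± 0.16. As TPM limma called no chaperone, with 8 lower at an unadjusted p under 0.05, and after scaling to total fragments it called 2. Of 30 unfolded protein and stress response genes 1 rose (3.33% called, against 12.8% of all genes).

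Markers of bile duct, matrix and macrophages divided the ligated libraries. In bulk liver RNA, a change in the number of cells of a type and a change of RNA per cell cannot be told apart. Of 10 cholangiocyte markers that passed, 3 rose, with a median of 0.93. The genes that rose numbered 5 without BDL_KO_2248. Spp1, osteopontin, measured 25.3, 25.8, 22.5, 23.6 and 22.9 FPKM in the sham libraries and 73.6, 539.6, 55.2, 305 and 336 FPKM in the ligated ones. BDL_KO_2359 and BDL_KO_2248 lay closest to sham and BDL_KO_2365 highest, and Spp1 rose by 2.93 ± 0.56, or by 3.96 without those 2 libraries. Krt19, a keratin of bile duct cells, rose by 1.71 ± 0.35, from 0.660, 0.996, 1.11, 1.34 and 1.61 FPKM to 3.85, 6.94, 1.66, 8.68 and 5.72 FPKM, and Muc1, an epithelial mucin, by 1.32 ± 0.21. Epcam, a surface protein of these cells, did not pass, with 1.60, 4.96, 1.15, 5.21 and 4.12 FPKM against 0.632 to 1.78 FPKM. Krt7, another duct keratin, missed the filter, with 0.0919, 0.212, 0.220, 0.171 and 0.194 FPKM in sham and 0.606, 1.05, 0.396, 1.74 and 0.682 FPKM in ligated libraries. Summed over the 15 markers the level was 40.3 to 56.2 FPKM in sham libraries, 93.5 FPKM in BDL_KO_2359, 73.4 FPKM in BDL_KO_2248 and 350.8 to 584.9 FPKM in the other 3. Without BDL_KO_2248 and BDL_KO_2359, 6 of the 10 rose.

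Of 25 stellate cell and matrix genes 6 rose, and 18 without BDL_KO_2248 and BDL_KO_2359. The number that rose was 3 without Sham_KO_2347, Sham_KO_2349, Sham_KO_2350, BDL_KO_2365 or BDL_KO_2370 and 13 without BDL_KO_2248. Summed over 27 markers the level was 160.1 to 221.1 FPKM in sham and 249.5 to 487 FPKM in ligated libraries, highest in BDL_KO_2248, although the list mean there was below the sham mean (-0.29). Timp1, an inhibitor of metalloproteinases, was higher in all 5 ligated libraries, from 0.162, 0.240, 0, 0.215 and 0.280 FPKM to 3.38, 8.43, 2.56, 10.3 and 3.92 FPKM, with a difference of 3.04 ± 0.33. It passed the filter through the ligated libraries alone. Lox, which crosslinks collagen, and the collagen gene Col5a2 rose by 1.03 ± 0.19 and 1.52 ± 0.22, Col5a2 with 0.188 to 0.539 FPKM in sham and 1.27 to 3.31 FPKM in ligated libraries. The fibrillar collagens themselves did not pass with all 10 libraries. Col1a1 measured 0.746, 0.953, 1.62, 1.63 and 2.28 FPKM in sham and 3.18, 17.5, 1.05, 28.1 and 15.8 FPKM in ligated livers, and Col3a1 2.03, 2.26, 4.06, 4.83 and 3.45 FPKM and 3.49, 29.6, 0.928, 33.3 and 27.0 FPKM. BDL_KO_2248 lay within or below the sham range for both. BDL_KO_2359 lay above that range for Col1a1 and within it for Col3a1. BDL_KO_2365, BDL_KO_2370 and BDL_KO_2371 lay well above it for both. The limma adjusted p was 0.0636 and 0.227 with all 10 libraries. It was 0.00021 and 0.000166 without BDL_KO_2248 and BDL_KO_2359, a choice made on the values tested. Of 16 matrix protease and inhibitor genes 6 rose, and 13 without BDL_KO_2248 and BDL_KO_2359. Leaving out 1 library changed the count that rose to 3 without Sham_KO_2350, BDL_KO_2365 or BDL_KO_2370. Mmp7, an epithelial metalloproteinase, rose by 2.31 ± 0.45, from 0.0674, 0.133, 0.181, 1.13 and 0.291 FPKM to 6.00, 1.11, 6.67, 5.02 and 1.81 FPKM, highest in BDL_KO_2248 and BDL_KO_2359. BDL_KO_2365 lay inside the sham range.

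Monocyte and Kupffer cell markers followed the same split by their list means, though not in every gene. Of 10 monocyte and recruited macrophage markers that passed, 4 rose, and 9 without BDL_KO_2248 and BDL_KO_2359. The count that rose was 9 without BDL_KO_2248. Of 10 Kupffer cell markers 3 rose, and 9 without those libraries. The genes that rose numbered 5 without BDL_KO_2248. Cd14, the coreceptor for bacterial lipopolysaccharide, measured 3.34, 3.03, 2.26, 4.20 and 5.86 FPKM in sham and 7.77, 37.5, 17.0, 67.6 and 16.0 FPKM in ligated libraries and rose by 2.49 ± 0.49. For Cd14 BDL_KO_2248 lay above BDL_KO_2371. Cd9, a tetraspanin, rose by 1.13 ± 0.22, with 6.34 to 11.3 FPKM in sham and 12.9 to 30.8 FPKM in ligated libraries. Of 4 neutrophil markers that passed, 2 rose, and both lay above the sham range in every ligated library. They were S100a9, from 0.552, 1.09, 1.24, 1.22 and 0.596 FPKM to 5.37, 6.30, 5.49, 10.5 and 7.41 FPKM, and S100a8, by 2.38 ± 0.21 and 1.44 ± 0.18. Summed over 12 neutrophil markers the level was 3.37 to 4.13 FPKM in sham and 11.2 to 19.5 FPKM in ligated libraries. Ly6g, Mpo, Ngp and Camp, below the filter, reached at most 0.0572, 0.365, 0.362 and 0.194 FPKM in any ligated library. Elane and Mmp9, also below it, overlapped between the groups. Cxcr2 and Mmp8, below it too, lay above their sham values in every ligated library, at up to 0.485 and 0.429 FPKM. Limma called none of 5 T and NK cell markers, with 0 higher and 0 lower at an unadjusted p under 0.05 and 0 called by voom on recovered fragments. Summed over 12 markers the level was 1.38 FPKM in BDL_KO_2248 and 2.02 FPKM in BDL_KO_2359, against 5.35 to 8.60 FPKM in sham libraries.

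Endothelial and hepatocyte markers fell in part. Of 14 sinusoidal endothelial markers 6 fell, with a median of -0.70, and their list mean was lowest in BDL_KO_2359 and then BDL_KO_2248 (-0.84). Oit3, a marker of these cells, fell by 0.96 ± 0.20, from 9.35, 11.6, 11.9, 10.1 and 7.72 FPKM to 3.33, 5.62, 3.48, 6.62 and 6.48 FPKM, without overlap. The number that fell was 1 without Sham_KO_2349, 2 without Sham_KO_2347, Sham_KO_2350 or Sham_KO_2352 and 3 without BDL_KO_2359. As TPM or after scaling to total fragments none was called. Of 19 hepatocyte identity genes 5 fell, 13 without BDL_KO_2248 and BDL_KO_2359, and 3 as TPM or after scaling to total fragments. Leaving out 1 library changed the count that fell to 1 without Sham_KO_2349, 2 without Sham_KO_2347, Sham_KO_2353, BDL_KO_2365 or BDL_KO_2370, 3 without Sham_KO_2350 and 8 without BDL_KO_2359.

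Some cytoskeleton genes rose, and cell cycle genes split the ligated libraries. Of 27 actin and tubulin cytoskeleton genes that passed, 8 rose, 17 without BDL_KO_2248 and BDL_KO_2359, and 5 after scaling to total fragments. The count that rose was 5 without Sham_KO_2352 or BDL_KO_2365. Krt18, a keratin of hepatocytes and duct cells, measured 145, 104, 108, 59.2 and 76.9 FPKM in sham and 222, 638, 189.8, 703 and 222 FPKM in ligated libraries, highest in BDL_KO_2370 and BDL_KO_2365, and rose by 1.82 ± 0.41. Tpm1, a tropomyosin, rose by 1.13 ± 0.20 and Tuba8, an alpha-tubulin, by 1.14 ± 0.21. Limma called none of the 20 cell cycle genes that passed, with 3 higher and 0 lower at an unadjusted p under 0.05 and 0 higher and 0 lower called by voom on recovered fragments. Their median was 0.80, and 14 rose without BDL_KO_2248 and BDL_KO_2359, 2 without BDL_KO_2359 alone and 1 without BDL_KO_2248 or Sham_KO_2349. Mki67, a marker of dividing cells, measured 0.150, 0.240, 0.128, 0.575 and 0.557 FPKM against 0.139, 3.60, 0.0365, 1.98 and 6.82 FPKM. BDL_KO_2248 and BDL_KO_2359 lay at the low end of the sham range or under it and the other 3 ligated libraries above that range. The list mean was 1.40, 1.02 and 1.94 above the sham mean in BDL_KO_2365, BDL_KO_2370 and BDL_KO_2371, and -0.08 and -0.25 in BDL_KO_2248 and BDL_KO_2359.

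**Figure D4:**
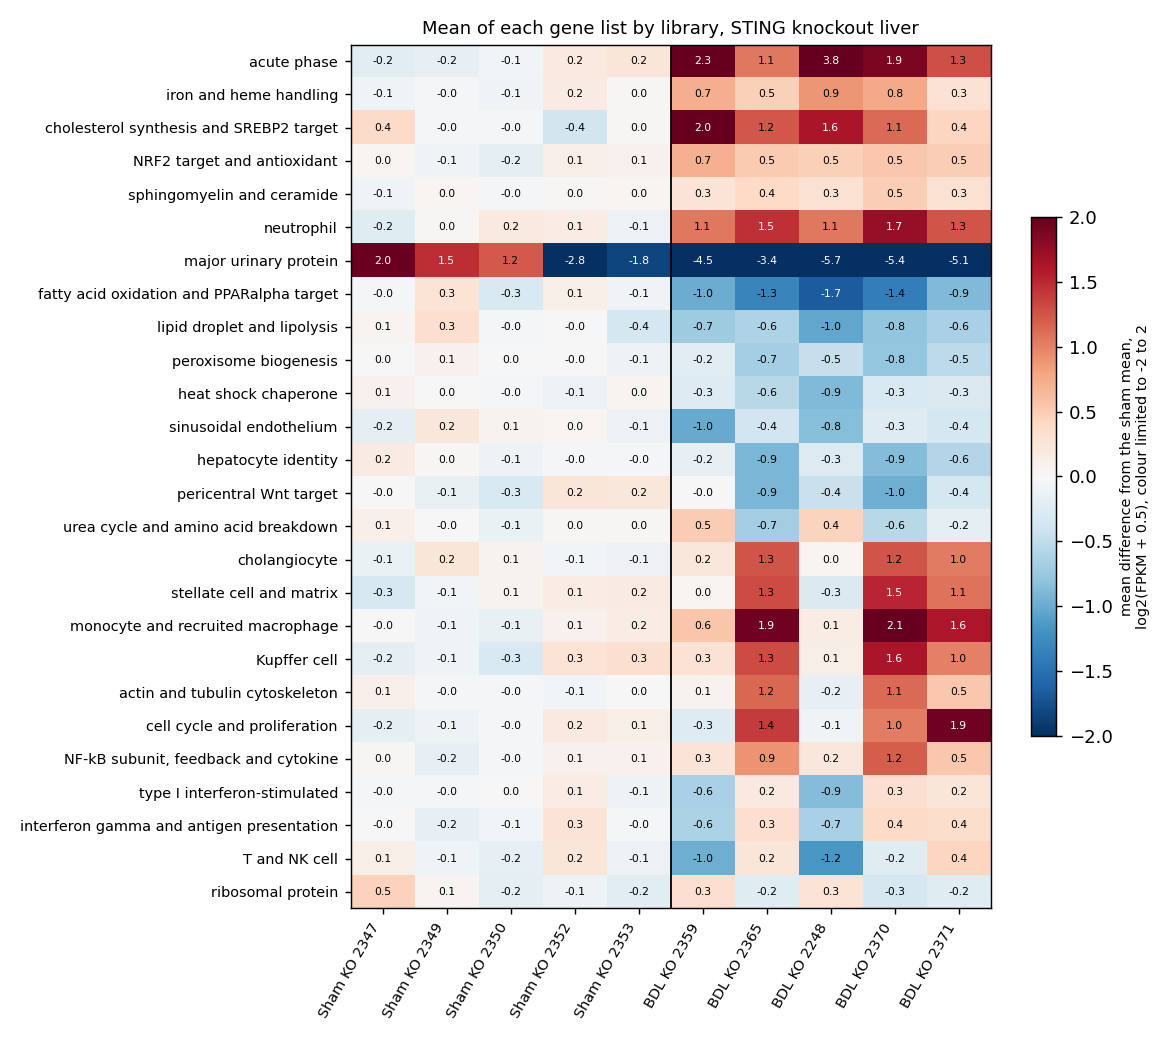
Each cell is the mean, over the tested members of 1 gene list (rows), of the difference from the sham mean in log2(FPKM + 0.5) in 1 library (columns, 5 sham on the left and 5 ligated on the right). Red is above and blue below the sham mean. The acute phase, cholesterol synthesis and neutrophil rows are red in all 5 ligated libraries and the fatty acid oxidation row blue, while the cholangiocyte, stellate, macrophage and cell cycle rows are closer to the sham mean in BDL_KO_2248 and BDL_KO_2359 than in the remaining 3 ligated libraries.

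Inflammatory signalling genes rose in part. Of 23 genes of the NF-kB list that passed, 6 rose, and 14 without BDL_KO_2248 and BDL_KO_2359. Icam1 and Vcam1, adhesion molecules for leukocytes, rose by 1.43 ± 0.26 and 1.36 ± 0.27, Icam1 from 1.72, 1.38, 1.51, 3.06 and 2.95 FPKM to 5.05, 7.27, 4.68, 11.0 and 5.25 FPKM. Csf1, the growth factor of macrophages, and Il33, an alarm cytokine, rose by 1.13 ± 0.21 and 1.08 ± 0.17, Il33 with 0.394 to 0.670 FPKM in sham and 1.13 to 2.35 FPKM in ligated libraries. Of 16 chemokine genes 4 rose and 2 fell. The genes that rose numbered 7 without BDL_KO_2248. Those that fell numbered 0 without Sham_KO_2347, Sham_KO_2349, Sham_KO_2353, BDL_KO_2359, BDL_KO_2365, BDL_KO_2370 or BDL_KO_2371. They numbered 1 without Sham_KO_2350 or Sham_KO_2352, and 0 as TPM. Cxcl1, which attracts neutrophils, measured 1.08, 0.265, 0.619, 1.02 and 0.564 FPKM in sham and 12.0, 13.0, 56.0, 17.8 and 4.01 FPKM in ligated libraries, highest in BDL_KO_2248, and rose by 3.69 ± 0.53 (limma adjusted p = 0.00223). Cxcl14 rose by 2.67 ± 0.31, from 0.828, 0.700, 0.989, 0.835 and 0.920 FPKM to 6.90, 13.9, 11.8, 9.08 and 3.24 FPKM, and Ccl6 by 1.78 ± 0.27. Ccl2, which attracts monocytes, did not pass, with 0.187 to 1.04 FPKM in sham and 1.23, 12.4, 0.581, 15.8 and 3.45 FPKM in ligated libraries, where the high values were in the 3 libraries with high macrophage markers. Of 17 genes of Toll-like receptor signalling 2 rose and 2 fell, and Tlr13, a sensor of bacterial RNA, rose by 0.99 ± 0.23.

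No type I interferon-stimulated gene was called higher with all 10 libraries. Of 40 type I interferon-stimulated genes that passed, limma called none higher and 2 lower. That was 5% of the list, against 12.8% of all genes called (6.14% higher and 6.63% lower). At an unadjusted limma p under 0.05 3 were higher, and voom on recovered fragments called 0 higher. The list had a median of -0.16 that changed sign as TPM (0.02). Irf9, the DNA-binding subunit of the interferon-activated complex ISGF3, measured 9.08, 8.01, 9.39, 9.13 and 9.05 FPKM in sham and 4.46, 5.55, 4.06, 6.32 and 5.54 FPKM in ligated libraries and fell by 0.74 ± 0.12 (limma adjusted p = 0.00379). Ifi27 fell by 0.82 ± 0.19, with 54.1 to 74.0 FPKM in sham and 24.2 to 43.4 FPKM in ligated libraries. Both calls were lost as TPM (limma adjusted p = 0.148 for Irf9 and 0.181 for Ifi27) and after scaling to total fragments (0.0691 and 0.106). Ifit1, a standard marker of the response, measured 3.63, 5.51, 5.68, 5.55 and 3.89 FPKM against 1.31, 3.67, 0.719, 4.39 and 3.75 FPKM and did not pass. Its lowest values were in BDL_KO_2248 and BDL_KO_2359, and the list mean was -0.87 and -0.64 in these libraries and 0.20 to 0.32 in the other 3. Without the 2 libraries 14 of the 40 rose and 2 fell, and without BDL_KO_2248 alone 3 rose. The interferon gamma list, with antigen presentation, held 31 tested genes, of which 2 rose and 1 fell, or 15 and 1 without them, and the median of -0.09 also changed sign as TPM (0.09). With all 10 libraries 9.68% of this list were called, against 12.8% of all genes.

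Cell death genes changed in part. Of 27 apoptosis, necroptosis and pyroptosis genes that passed, 5 rose and 1 fell (22.2% called, against 12.8% of all genes), and as TPM or after scaling to total fragments 3 rose and none fell. The number that rose was 3 without Sham_KO_2347, Sham_KO_2350, Sham_KO_2353, BDL_KO_2365, BDL_KO_2370 or BDL_KO_2371 and 8 without BDL_KO_2248. Tnfrsf1a, the first receptor for TNF, rose by 0.86 ± 0.16, from 31.3, 31.4, 31.3, 33.3 and 30.7 FPKM to 60.8, 51.8, 83.2, 56.5 and 43.3 FPKM, and Mcl1, which blocks apoptosis, by 0.63 ± 0.11, with 29.9 to 34.8 FPKM in sham and 41.9 to 55.5 FPKM in ligated libraries. Casp8, the initiator caspase of death receptors and the member that fell, did so by 0.83 ± 0.17, with 11.4 to 16.6 FPKM in sham and 5.60 to 9.78 FPKM in ligated libraries, a call lost as TPM (limma adjusted p = 0.148) and after scaling to total fragments (0.0814). Of 20 p53 targets 2 rose, Btg2 and Trp53inp1, which restrain growth, by 1.68 ± 0.30 and 1.05 ± 0.18. In this list 10% were called, against 12.8% of all genes. Cdkn1a, the p53 target that stops the cell cycle, measured 10.0, 22.4, 17.3, 25.3 and 12.0 FPKM against 5.50, 22.3, 50.8, 19.5 and 14.5 FPKM and did not pass. Btc, a ligand of the EGF receptor, rose by 1.29 ± 0.22, with 0.262 to 0.585 FPKM in sham and 0.886 to 2.61 FPKM in ligated libraries. Sdc1, a proteoglycan of hepatocytes and plasma cells, rose by 0.82 ± 0.17.

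**Figure D5:**
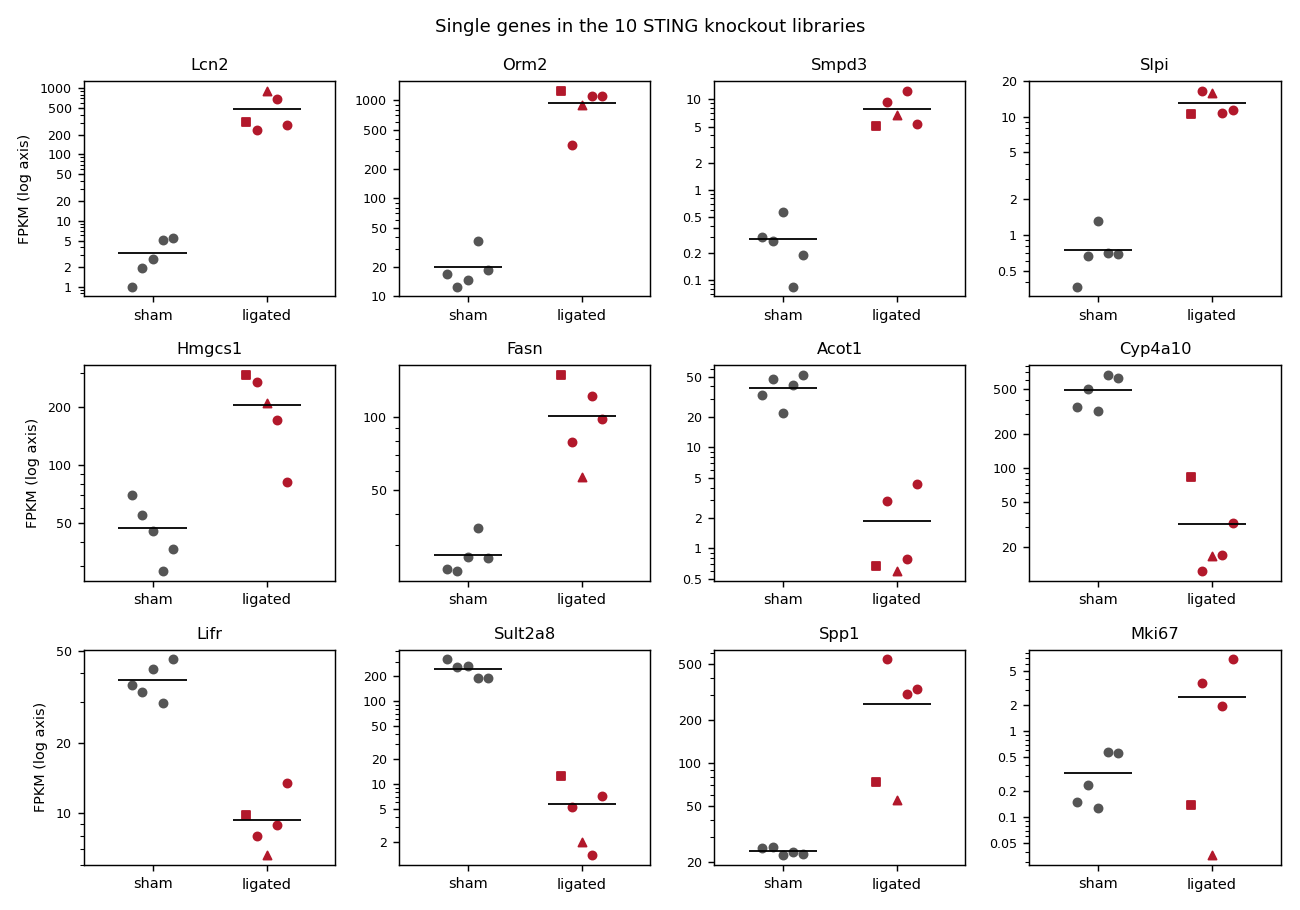
FPKM of 12 genes in the 10 STING knockout libraries on log axes, with 1 point per library, grey for sham and red for ligated, and a line at the group mean. Triangles mark BDL_KO_2248 and squares BDL_KO_2359. In the panels from Lcn2 to Sult2a8 and in Spp1 the groups do not overlap, while for Mki67 these 2 libraries fall within or under the sham range.

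The spread among ligated libraries was wide for some genes of sex-biased expression. Sult2a1, a sulfotransferase, measured 0, 0, 0, 135 and 8.42 FPKM in sham libraries and 1.77, 0, 162, 1.99 and 2.17 FPKM in ligated ones, high in the sham libraries with Xist and highest in BDL_KO_2248 after ligation. Cyp2a4 measured 2.78, 2.62, 0.668, 394 and 231 FPKM and 0.461, 0.589, 0.592, 65.8 and 174 FPKM, and here BDL_KO_2248, which carries Xist, was low. Neither gene passed. In all, 480 genes had an SD above 1 log2 unit among the ligated libraries, against 262 among the sham libraries. BDL_KO_2248 was the lowest of the 5 for 216 and the highest for 124 of the 480.

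The response was set beside that of wild-type livers, which share no library with it. The difference between the responses was called for 44 genes (0.346%), 21 of them higher and 23 lower in knockout. Among genes named above, Fasn (1.83 ± 0.28), Acaca (1.12 ± 0.17) and Srebf1 (2.54 ± 0.42) had a higher response in knockout, with limma adjusted p = 0.0109, 0.0109 and 0.0187. In wild-type livers these 3 changed by -0.02 ± 0.20, 0.15 ± 0.12 and -1.09 ± 0.29. Irf9 (-0.82 ± 0.15) and Cdkn1a (-3.05 ± 0.62) had a lower response in knockout, with limma adjusted p = 0.034 and 0.0382, and changed by 0.08 ± 0.11 and 3.17 ± 0.44 in wild-type livers. Without BDL_KO_2248 and BDL_KO_2359 the count was 127, and as TPM it was 6.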

How the data were processed

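The deposited table holds FPKM values in 1 column per library. The authors' tools, per the submitters' processing notes, included HISAT2 2.0.5 and featureCounts 1.5.0-p3 besides fastp, CASAVA 1.8 and DESeq2 1.20.0, and the builds named are GRCm38 and mm10. Roles, annotation release, strand setting and the handling of reads shared by gene copies were not stated there, so copies and overlapping or antisense genes are uncertain. Libraries were grouped by their titles.

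Low values were whole multiples of 1 fragment (98.5% to 98.8% of values per library, tolerance 0.02), which gave the depth and a voom alternative that called 1580 genes. Values were tested as log2(FPKM + 0.5) with limma 3.58.1 (trend and robust variance, R 4.3.3), the 10 knockout libraries alone, and Benjamini-Hochberg adjustment. The difference from wild type was an interaction term over all 20 libraries. Simulated data for the ligated and sham knockout groups, in 3 runs with 200 changed genes each, recovered 74% to 81% of 2-fold changes. The changed genes were drawn only from those above a set mean level, so recovery among genes of low level was not tested. At most 9.68% of calls were false, which is above the share that the threshold for calls aims at. How these shares hold with shifts common to many genes of a library, as in BDL_KO_2248 and BDL_KO_2359, was not tested. Alternatives covered pseudocount, filter, scaling, weights, library type and each library left out. Scaling to total fragments, and the difference from wild type without BDL_KO_2248 and BDL_KO_2359, were added after seeing the data. The choice of these libraries was also made on the data.

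The members and gene lists were chosen with earlier results of these data known. Named genes were Tmem173, the 12 largest increases and decreases and 12 smallest p-values, up to 5 called and the 2 most abundant members of each list, and the 6 widest spreads. Acadvl, Apcs, Ccl2, Cd36, Col1a1, Col3a1, Cpt2, Creb3l3, Cyp7a1, Dhcr7, Ebp, Eci1, Ehhadh, Epcam, Fdft1, Gm21320, Hadha, Ifit1, Itih3, Krt7, Lss, Mki67, Msmo1, Mup18, Nr0b2, Orm1, Orm3, Saa3, Slc25a20, Sqle, Srebf2 and Tm7sf2 were named after their values were seen. Some genes that the rule selects are not reported here. Promoters came from the RefSeq table for GRCm38.p6.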

Additional observations from a re-analysis of the deposited data

Results flagged for a closer look

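Dixon's criterion was applied to each group of 5 libraries for 159 named genes, 318 groups in all, and marked 20 single libraries. Chance marks about 1 in 20 groups. BDL_KO_2248 stood apart from the other ligated libraries in 5 genes, high in Fga (12457 FPKM), Fgg (10422 FPKM) and Sult2a1 (162 FPKM) and low in Ehhadh (33.9 FPKM) and Spink1 (0.696 FPKM). BDL_KO_2359 was high in Dbp (10.8 FPKM), Slc2a2 (98.7 FPKM) and Hsd3b5 (0.301 FPKM, under the 0.5 FPKM of the filter). BDL_KO_2365 was low in Orm2 (350 FPKM) and high in Mup16 (3.79 FPKM), and BDL_KO_2371 was high in Hbb-bs (673 FPKM).

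Among sham libraries, Sham_KO_2353 was high in Srebf2 (13.2 FPKM) and Itih3 (346 FPKM) and low in Scd1 (548 FPKM). Sham_KO_2352 was high in Nqo1 (7.65 FPKM) and Tnfrsf1a (33.3 FPKM), and Sham_KO_2350 in Btc (0.585 FPKM) and Spink1 (0.153 FPKM, the other 4 listed at 0). That Spink1 value also lies under the 0.5 FPKM of the filter. Sham_KO_2347 was high in Ndufs7 (80.6 FPKM), and Sham_KO_2349 low in Irf9 (8.01 FPKM).

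The response to ligation differed between knockout and wild-type liver, by limma's interaction term, in 5 of the named genes. It was higher in knockout for Srebf1 (2.54), Fasn (1.83) and Acaca (1.12) and lower for Irf9 (-0.82) and Cdkn1a (-3.05), as log2 differences between the responses.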

How the results depend on the processing

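The count of 1624 genes (781 higher, 843 lower) was 1047 without a filter on low values (494 lower), 969 as TPM (287 lower), and 937 after scaling to total fragments (511 higher, 426 lower). It was 3455 with library weights (1677 and 1778), 3265 with all 4 groups in the fit (1500 and 1765), and 3542 without BDL_KO_2248 and BDL_KO_2359 (1755 and 1787). It was 243 with only libraries with Y-linked transcripts (127 and 116) and 13 with only those with Xist (5 and 8), which hold fewer samples. With 1 library left out it ran from 948 to 1996, with 475 to 1068 higher and 458 to 1072 lower. The other 10 alternatives gave 1423 to 1812. The 44 genes whose response differed from wild type became 11 without a filter, 6 as TPM and 127 without BDL_KO_2248 and BDL_KO_2359. Where no cause is named, the cause was not tested. The medians of 9 lists changed sign under at least 1 other scaling, and counts of 1 or 2 list members moved with single libraries. No named gene changed direction under an alternative while called. No paired analysis was possible because no library number in the titles occurs in both groups. Depth limits values near 0.0539 to 0.0733 FPKM per fragment and kilobase.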
